A study of Monodelphis domestica and Mus musculus with 26 samples.

Results

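Testes of adult gray short-tailed opossums (Monodelphis domestica) were compared with testes of 3-month-old opossums by bulk RNA sequencing of polyA-selected libraries, to describe which transcripts still differed once the first wave of spermatogenesis was under way. All polyA libraries labelled adult (replicates 1, 3, 4, 5, 6 and 7) or 3M (replicates 1 to 4) were taken, which gave 10 of the 20 bulk libraries and 10 of the 26 samples of the study. The other samples were bulk opossum testes of other ages, 4 libraries made by rRNA depletion, among them adult replicate 2, and 6 single-cell libraries of adult mouse and opossum testes. Per the labels, the animals were kept under standard laboratory conditions and the testes were dissociated with collagenase and trypsin into a filtered cell suspension before RNA isolation. No strain, genotype, treatment or exact adult age is named in the labels. The labels do not say that each replicate came from a separate animal, so p-values measure the spread between these libraries. Polyadenylated libraries of 1 month (2 libraries), 2 months (1 library) and 4 months (3 libraries) are used below for levels, and entered 1 alternative fit but not the main test.

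In the testis, spermatogonia divide by mitosis, enter meiosis as spermatocytes and leave it as round spermatids, which elongate into sperm. During elongation the nucleus is condensed as histones give way to transition proteins and then to protamines, and the flagellum and the acrosome are completed. The first cohort of germ cells to pass through these steps reaches each stage at a characteristic age, so that a young testis holds earlier stages in excess over later ones until all stages are present together. Sertoli cells support the germ cells inside the tubule, Leydig cells outside it make androgens, and peritubular, vascular and immune cells complete the organ.

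Levels are TPM, transcript abundance already divided by transcript length and scaled to the same total in every library, after removal of the mitochondrial genes and rescaling to 1000000. The 10 libraries held 3.79 to 5.50 gigabases of aligned sequence, computed from coverage and FPKM. Adult replicates 1 and 3 stood apart from the rest. Across the 18219 tested genes, the Pearson correlation of log2(TPM + 1) was 0.975 to 0.985 between the 3-month libraries and 0.958 to 0.979 between adult replicates 4 to 7, but 0.822 to 0.878 between adult replicates 1 and 3 and those 4. Mitochondrial genes held 39.9% of the deposited TPM in adult replicate 1 and 11.8% in adult replicate 3, against 7.36% to 8.66% in the other adults and 3.71% to 5.97% at 3 months. Genes with a TPM of at least 1 numbered 14656 and 14912 in adult replicates 1 and 3, and 15780 to 16759 in the other 8 libraries. Results are therefore given with all 6 adults and, where counts are led with, without those 2 libraries.

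Testing was restricted to the 18219 genes that reached 1 TPM in 2 or more of the 10 libraries, of which 659 (3.62%) passed limma's test at a Benjamini-Hochberg adjusted p under 0.05. In adults 443 genes (2.43%) were higher and 216 (1.19%) lower, and 4070 passed an unadjusted p under 0.05. Separation of the groups leaned the other way. All adults were above all 3-month libraries for 805 genes (4.42%) and below them for 1594 (8.75%), called or not. Differences of any size were positive for 7832 genes and negative for 10387. The median difference over all tested genes was -0.11 on the log2(TPM + 1) scale, used for every difference here, which understates the change of genes at low TPM. It was 1.68 over the genes called higher and -1.33 over those called lower, and 123 of the former but 20 of the latter differed by at least 2 in size. Without adult replicates 1 and 3, 6476 genes were called, 3416 higher (19.1% of 17870 tested) and 3060 lower (17.1%), and 656 of the 659 genes were among them. Counts of list members without those 2 libraries, given below, are to be read against these 2 shares, and list medians against an overall median of 0.09. The number of calls also depended on single libraries: without 3-month replicate 1 it was 167, and of the 39 named genes called with all libraries 16 were then called. Without adult replicate 1, 1032 genes were higher and 651 lower of 18092 tested. The counts were 827 and 1125 of 18017 without adult replicate 3, and 380 and 292 of 18112 without adult replicate 6. Each other library left out gave 147 to 356 higher and 20 to 101 lower. Counts of list members with 1 library left out are to be read against these. Named genes called under all 24 alternatives were PRM1, TSSK3, TSSK6, LYPLA1, RANGRF, TMEM239, CLDN10, REG4 and 3 genes without a symbol, and INHBB was called under the 23 that tested it. Of these alternatives, rescaled FPKM equals TPM by construction, and a cut at an absolute difference of at least 1 reuses the main fit. The call was lost under 8 or more of the 24 by TPPP2, OAZ3, SPACA9, ANLN, CCNA1, SALL4, ABHD6, KRT18, LRAT, SH3GL1, LRRC23, DIPK1A, CADM4 and ENSMODG00000044243. Only 33.6% of the genes called higher and 48.1% of those called lower carried a gene symbol in the tables, against 53.2% of all tested genes.

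**Figure D1:**
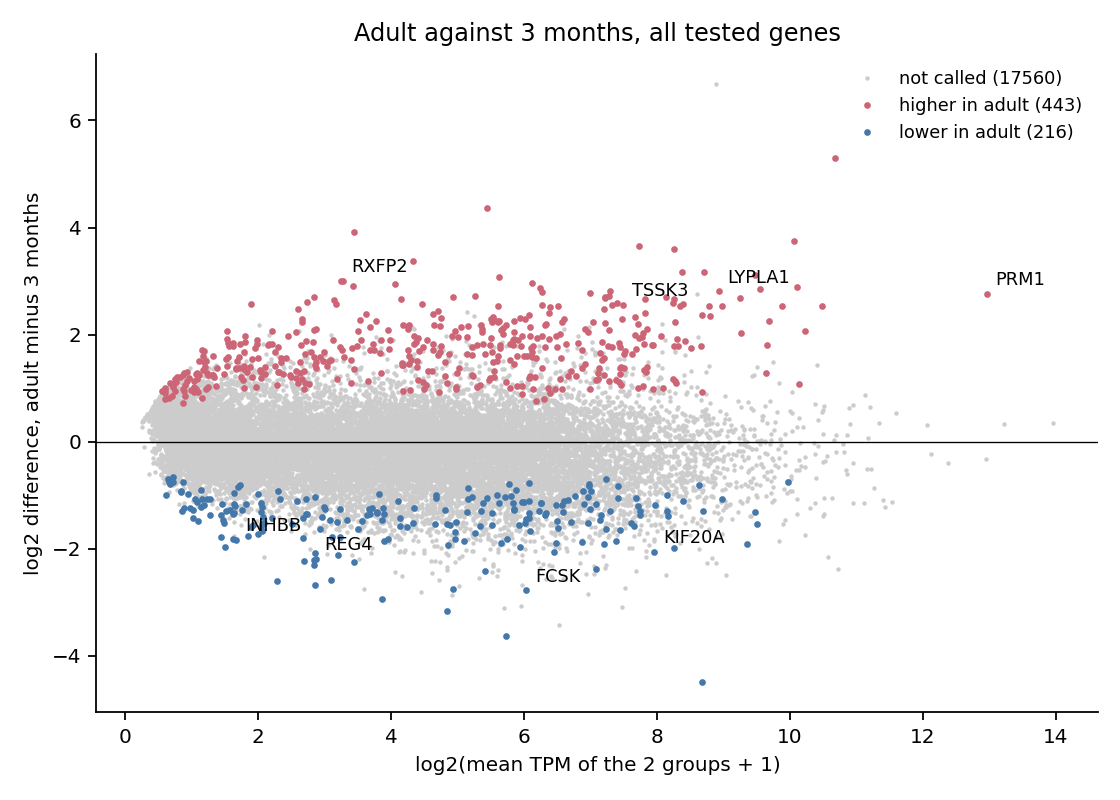
Difference between adult and 3 months for each of the 18219 tested genes (vertical axis, log2 scale) against its mean level in the 2 groups (horizontal axis, log2 of TPM + 1). The 443 genes called higher are red, the 216 called lower are blue, and the largest differences called higher reach further from 0 than those called lower, with 123 against 20 past a difference of 2.

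In the main test, genes of elongating spermatids and chromatin condensation held more called members than any other of the 26 gene lists examined. That rank did not hold under every alternative. Of 28 tested members 5 rose (17.9%, beside 2.43% of all tested genes) and 0 fell, and their median difference was 0.55, beside -0.11 over all tested genes. The summed TPM of the list's measured members was 8406, 10700, 12552 and 8336 in the 3-month libraries and 18509 to 34124 in adults, without overlap. PRM1 alone held 1231 to 3431 TPM of these sums at 3 months and 10517 to 19214 in adults, with 12539 of the 18509 in adult replicate 1. With PRM1 set aside, adult replicate 1 lies below every 3-month library and the other adults above. The lack of overlap in the sums therefore rests on PRM1. The lowest adult sums, 18509 and 23081, were those of replicates 1 and 3. Without these 2 libraries 20 of 28 members rose and 4 fell, with a median of 1.13. Leaving out 1 library gave 3 or 4 members higher, except 13 without adult replicate 1 and 8 without adult replicate 3. Genes called higher among all tested also grew in number there, from 443 to 1032 and 827. Those with a negative difference included PHF7 and RNF8, of histone marking in spermatids, which were lower in all adults without passing.

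PRM1 (chromosome 6, 110070341 to 110070867), the protamine that packs DNA in the sperm head, was the most abundant gene of this group. Its TPM was 1231, 2990.2, 3431 and 1263 at 3 months, and in adults it ran from 10517 over a median of 13103 to 19214. Every adult library, replicates 1 and 3 included, was above every 3-month library, and the means were 2229 ± 1148 (SD, n = 4) and 13721 ± 2975 (SD, n = 6). The log2 difference was 2.75 (SE 0.332, limma adjusted p = 0.00201), and it was 2.87 without adult replicates 1 and 3.

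TPPP2, of the tubulin polymerization-promoting protein family, had 35.0, 67.2, 86.9 and 26.6 TPM at 3 months and 91.4 to 692 in adults with a median of 475 (log2 difference 2.66, SE 0.612, adjusted p = 0.0383). OAZ3, the testis-specific antizyme that acts on polyamine synthesis, had 147, 268, 365 and 151 TPM at 3 months and 424 to 1645 in adults with a median of 1074 (2.03, SE 0.424, adjusted p = 0.025). OAZ3 overlaps SNX27 on the same strand, which had means of 78.8 and 28.1 TPM. For both genes adult replicates 1 and 3 were the lowest adults, and for TPPP2 they lay just above the highest 3-month library. ACTRT2, an actin-related protein, and SPATA19, a protein of sperm mitochondria, completed the group with log2 differences of 1.79 and 1.56. For these 2 genes adult replicates 1 and 3 were nearer to the other adults, at 329 and 524 TPM against 451 to 592 for ACTRT2.

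Other late spermatid genes were higher in adult replicates 4 to 7 but not in adult replicates 1 and 3, and did not pass. TNP1, a transition protein that sits on DNA between histones and protamines, had 265, 465, 605 and 203 TPM at 3 months. It had 1189.9 to 1677 TPM in adult replicates 4 to 7, but 306 and 314 in adult replicates 1 and 3, within the 3-month range (adjusted p = 0.213). The same split was seen in ODF1, an outer dense fibre protein of the tail, with 255 to 394 TPM in adult replicates 4 to 7 and 35.5 and 68.7 in replicates 1 and 3, beside 34.3 to 83.5 at 3 months (adjusted p = 0.156). GAPDHS, the sperm form of a glycolytic enzyme, had 492 to 781 TPM in adult replicates 4 to 7, 141 and 183 in replicates 1 and 3, and 76.2 to 203 at 3 months (adjusted p = 0.0921). Leaving out replicates 1 and 3 was added once the libraries had been examined, and it removes the lowest adult values of these 3 genes. In that setting TNP1, ODF1 and GAPDHS rose by 1.96, 2.56 and 2.33 (limma adjusted p of 0.000221 to 0.00121). Adult replicates 1 and 3 thus had PRM1 at the level of the other adults and TNP1, ODF1 and GAPDHS at the level of 3 months. These 2 libraries also had the highest mitochondrial shares of the 10, and the part of that in this result was not tested.

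**Figure D2:**
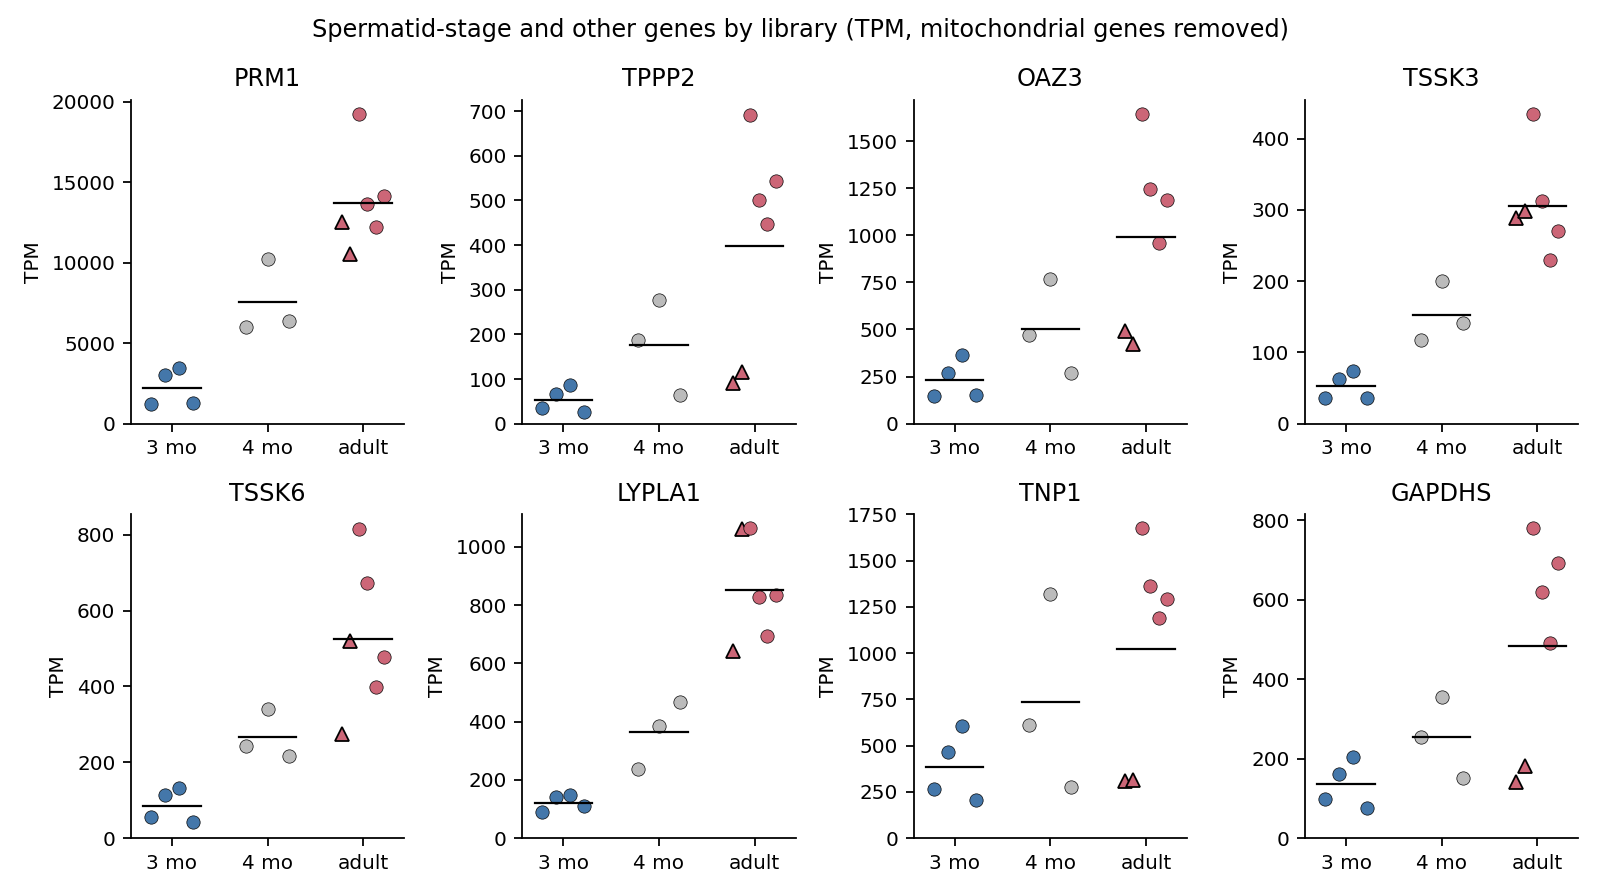
TPM of 8 genes in each library of 3 months (blue, 4 libraries), 4 months (grey, 3 libraries) and adult (red, 6 libraries), with triangles for adult replicates 1 and 3 and a line at each mean. PRM1, TPPP2, OAZ3, TSSK3, TSSK6 and LYPLA1 do not overlap between 3 months and adult, while for TNP1 and GAPDHS the triangles lie among the 3-month libraries. A lack of overlap was a condition for naming LYPLA1.

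Genes of round spermatids and the acrosome included a pair of kinases that rose. Of 18 tested members 3 rose (16.7%, beside 2.43% of all tested genes) and 0 fell, with a median difference of -0.32. TSSK3 and TSSK6 belong to the testis-specific serine kinases, which act in spermatids. TSSK3 (chromosome 4, 425727404 to 425729410) had 36.4, 62.7, 74.3 and 36.4 TPM at 3 months and 229 to 435 in adults with a median of 293 (log2 difference 2.56, SE 0.268, adjusted p = 0.00105). TSSK6 had 55.6, 112, 132 and 42.2 TPM at 3 months and 274 to 816 in adults with a median of 498 (2.67, SE 0.383, adjusted p = 0.00383). Both groups of values were separate, and adult replicate 1 was the lowest adult for TSSK6 but not for TSSK3. TSSK6 overlaps NDUFA13 on the opposite strand, which had means of 164.7 TPM at 3 months and 330.2 in adults. TSSK3 overlaps BSDC1 in the same way, with means of 57.7 and 43.7 TPM. Whether reads were assigned by strand is not given in the sources used here. The remaining kinases of the family did not pass: TSSK2 differed by 1.19 (adjusted p = 0.0703), TSSK1B by 0.40 and TSSK4 by -0.37. SPACA9, a sperm acrosome-associated protein, rose from 64.0 to 137 TPM at 3 months to 163 to 346 in adults (1.38, adjusted p = 0.0232). Among members with a negative difference CCDC62 and SPATA16, the latter a protein of the forming acrosome, had differences of -1.85 and -1.69 that did not pass (adjusted p = 0.162 and 0.0793). Leaving out 1 library gave 2 or 3 members higher and 0 lower, with 2 exceptions. These were 7 higher and 1 lower without adult replicate 1, and 3 higher and 1 lower without adult replicate 3. Over all tested genes 1032 were higher and 651 lower in the former setting, and 827 and 1125 in the latter. Without adult replicates 1 and 3, 7 members rose and 4 fell.

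None of 30 tested genes of the flagellum and axoneme was called by limma, and the median difference was -0.99. The adults lay below all 3-month libraries for 7 of the 30 (23.3%), beside 8.75% of all tested genes, and above them for 0, beside 4.42%. Examples are DNAI1, a dynein intermediate chain, with a mean of 127 TPM at 3 months and 65.8 in adults (log2 difference -1.10, adjusted p = 0.114), and the tektin TEKT2, with means of 799.5 and 397 (-1.32, adjusted p = 0.133). DNAI1 did not overlap between groups, and TEKT2 did, since adult replicate 3 had 916 TPM. The summed TPM of the list ran from 3279 to 3638 at 3 months and from 834 to 3444 in adults, where replicate 1 was lowest and replicate 3 highest. Leaving out 1 library gave 10 lower for adult replicate 3, 2 lower for adult replicate 6, 1 higher for adult replicate 1 and 0 calls for the rest. Genes called lower among all tested were 1125 and 292 without adult replicates 3 and 6, beside 216 with all libraries. Without adult replicates 1 and 3, 17 of 30 members fell and 2 rose, DNAH3, a dynein heavy chain, by 0.98 and CEP135, a centriolar protein, by 2.23. Of 15 tested genes for sperm ion channels and fertilization none was called and the median was -0.65. There, 8 fell without those 2 libraries, and the one that rose was PLCZ1, the phospholipase that sperm bring into the egg (1.16, beside 0.92 with all adults).

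**Figure D3:**
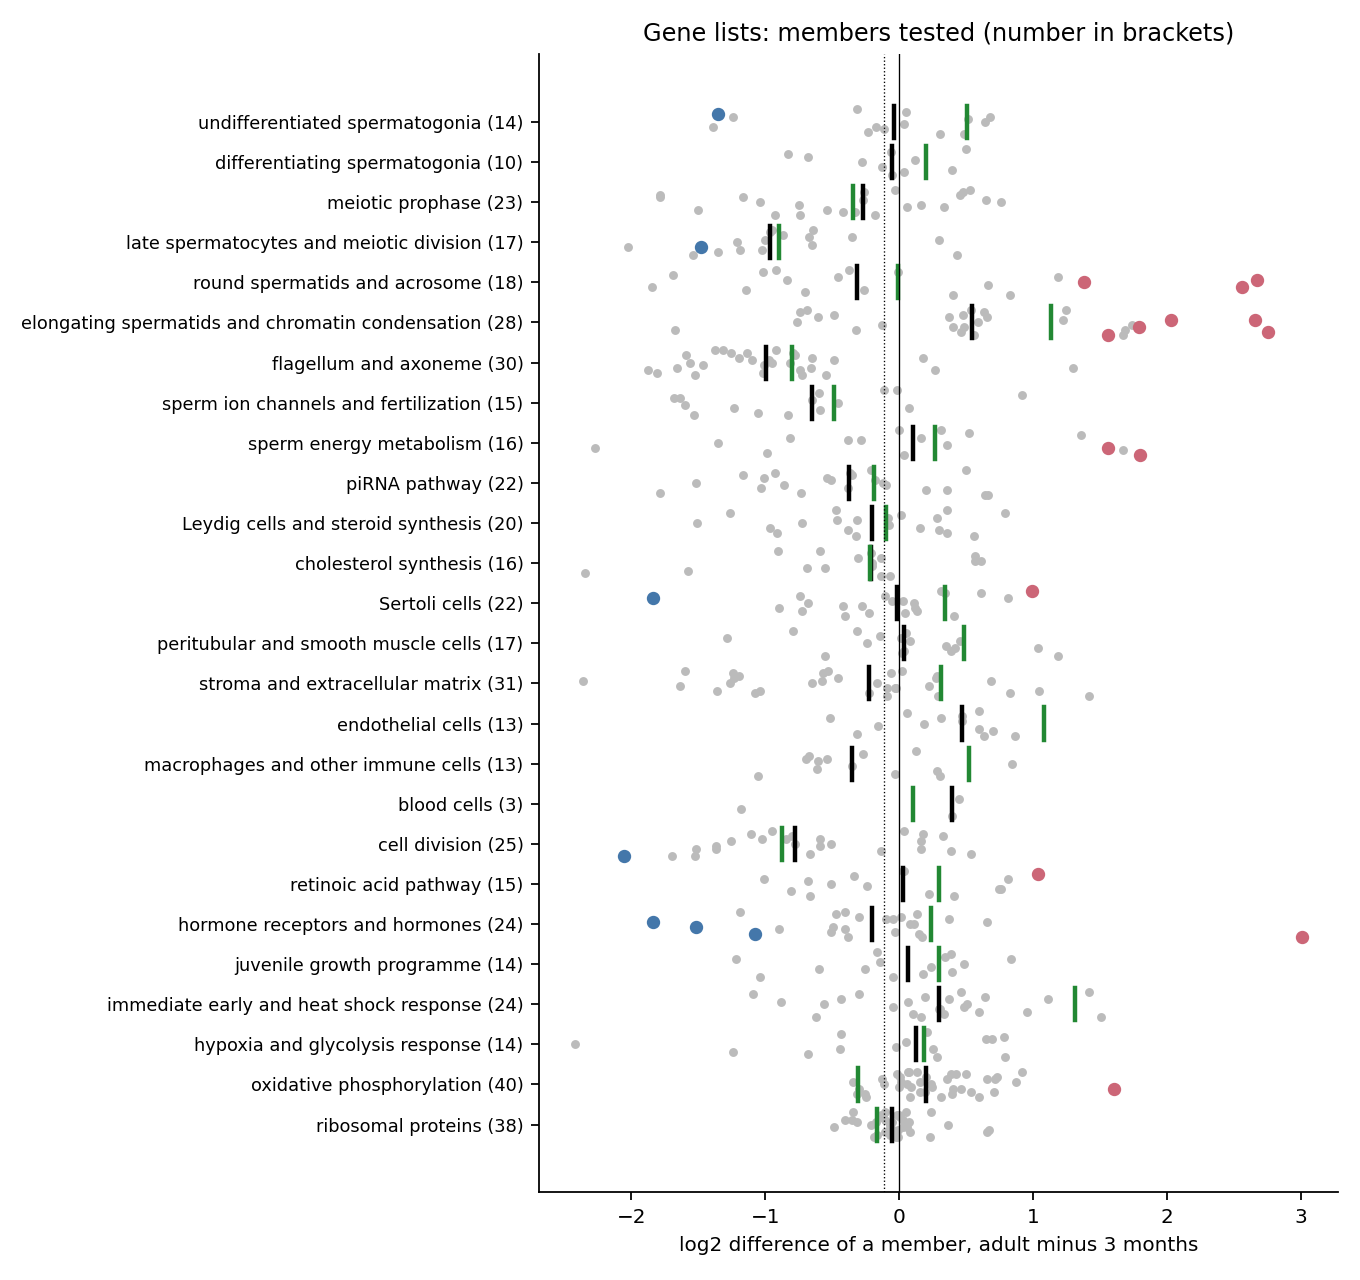
Log2 difference, adult minus 3 months, of every tested member (dots) of the 26 gene lists, with the number tested in brackets. Members called higher are red and called lower blue, black bars are list medians with all 6 adults, green bars are medians without adult replicates 1 and 3, and the dotted line is the median over all genes, -0.11. The red dots are most frequent among elongating spermatid genes, whose median is 0.55, while the medians of flagellum, late spermatocyte and cell division genes lie at -0.99, -0.96 and -0.78.

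Genes of late spermatocytes and of cell division mostly had negative differences, few of them past the threshold. CCNA1, the A-type cyclin of male meiosis, was the one gene called among 17 of late spermatocytes (5.88%, beside 1.19% of all tested genes called lower). It had 141, 114, 119 and 140.3 TPM at 3 months and 27.0 to 90.2 in adults with a median of 42.8, without overlap, and fell by 1.48 (SE 0.351, adjusted p = 0.042). In 15 of the 17 genes the difference was negative, with a median of -0.96, and 4 (23.5%, beside 8.75% of all tested genes) were lower in all adults than in all 3-month libraries. HSPA2, the testis heat shock protein of spermatocytes, was among these 4, with a mean of 3704 TPM at 3 months and 1825 in adults (-1.21, adjusted p = 0.127). Without adult replicates 1 and 3, 10 of the 17 fell and 0 rose. Leaving out 1 library gave 0 calls for each 3-month replicate and for adult replicates 4, 5 and 7, and 4, 6 and 2 lower for adult replicates 1, 3 and 6. In the settings without adult replicates 1, 3 and 6, all tested genes gave 651, 1125 and 292 lower, beside 216 with all libraries.

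KIF20A, a kinesin of cytokinesis, was the one gene called among 25 of cell division (4%, beside 1.19% of all tested genes called lower). Leaving out 1 library gave 0 calls in that list for 3-month replicates 1, 2 and 4, 4 for adult replicate 1, 13 for adult replicate 3, 3 for adult replicate 6 and 1 for the rest. All tested genes gave 651, 1125 and 292 lower without adult replicates 1, 3 and 6, beside 216 with all libraries. KIF20A had 456, 344, 348 and 412 TPM at 3 months and 41.8 to 183 in adults with a median of 104 (log2 difference -2.05, SE 0.388, adjusted p = 0.0159). ANLN, an actin-binding protein of the cleavage furrow, was named by the size of its change and fell from 43.4 to 54.8 TPM at 3 months to 0.702 to 19.9 in adults (-2.76, adjusted p = 0.0372). Values differed between members chosen here as examples. TPX2, BUB1 and TOP2A, which act on the mitotic spindle and on chromosomes, had differences of -1.69, -1.51 and -1.36, whereas the replication genes MCM2, MCM3 and MCM6 had 0.04, 0.17 and 0.18, and none of these 6 passed. With the 2 libraries left out 14 members fell and 1 rose, PCNA, the replication clamp (0.45).

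Meiotic prophase genes showed no call in 23 tested members, with a median of -0.27. MEIOC, MYBL1 and SMC1B, a regulator of meiotic prophase, a transcription factor of pachytene cells and a meiotic cohesin, had differences of -1.79, -1.78 and -1.50. At the other end were HORMAD1, MEI4 and SYCP1, which act on chromosome axes, on double-strand breaks and in the synaptonemal complex, with 0.65, 0.76 and 0.45. DMC1, the meiotic recombinase, had 16.2 to 19.7 TPM at 3 months and 18.2 to 25.6 in adults (0.34, adjusted p = 0.345). Of 22 tested piRNA pathway genes none was called and the median was -0.37. DDX4, the germ cell helicase, had 517 to 597 TPM at 3 months and 152 to 517 in adults, of which replicate 3 was highest and less than 1 TPM below the lowest 3-month library (-1.03, adjusted p = 0.105), and PIWIL1 had 94.4 to 145 and 37.9 to 158 (-0.35, adjusted p = 0.616). Without the 2 libraries, 9 fell and 3 rose in each of these lists.

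The 3-month libraries also differed among themselves. In 18 of the 28 elongating spermatid genes both replicates 2 and 3 were above both replicates 1 and 4, (64.3%), as in 34.2% of all tested genes. The same order held in 16 of 24 immediate early and heat shock genes (66.7%), 9 of 15 retinoic acid pathway genes (60%) and 17 of 31 stromal genes (54.8%). The reverse order held in 13 of 25 cell division genes, 7 of 16 cholesterol synthesis genes, 9 of 23 meiotic prophase genes, 8 of 17 late spermatocyte genes and 9 of 22 piRNA genes, beside 15.4% of all tested genes. PRM1 shows the spread: replicates 2 and 3 had 2990.2 and 3431 TPM, and replicates 1 and 4 had 1231 and 1263. This ordering was noticed in the data and carries no test.

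**Figure D4:**
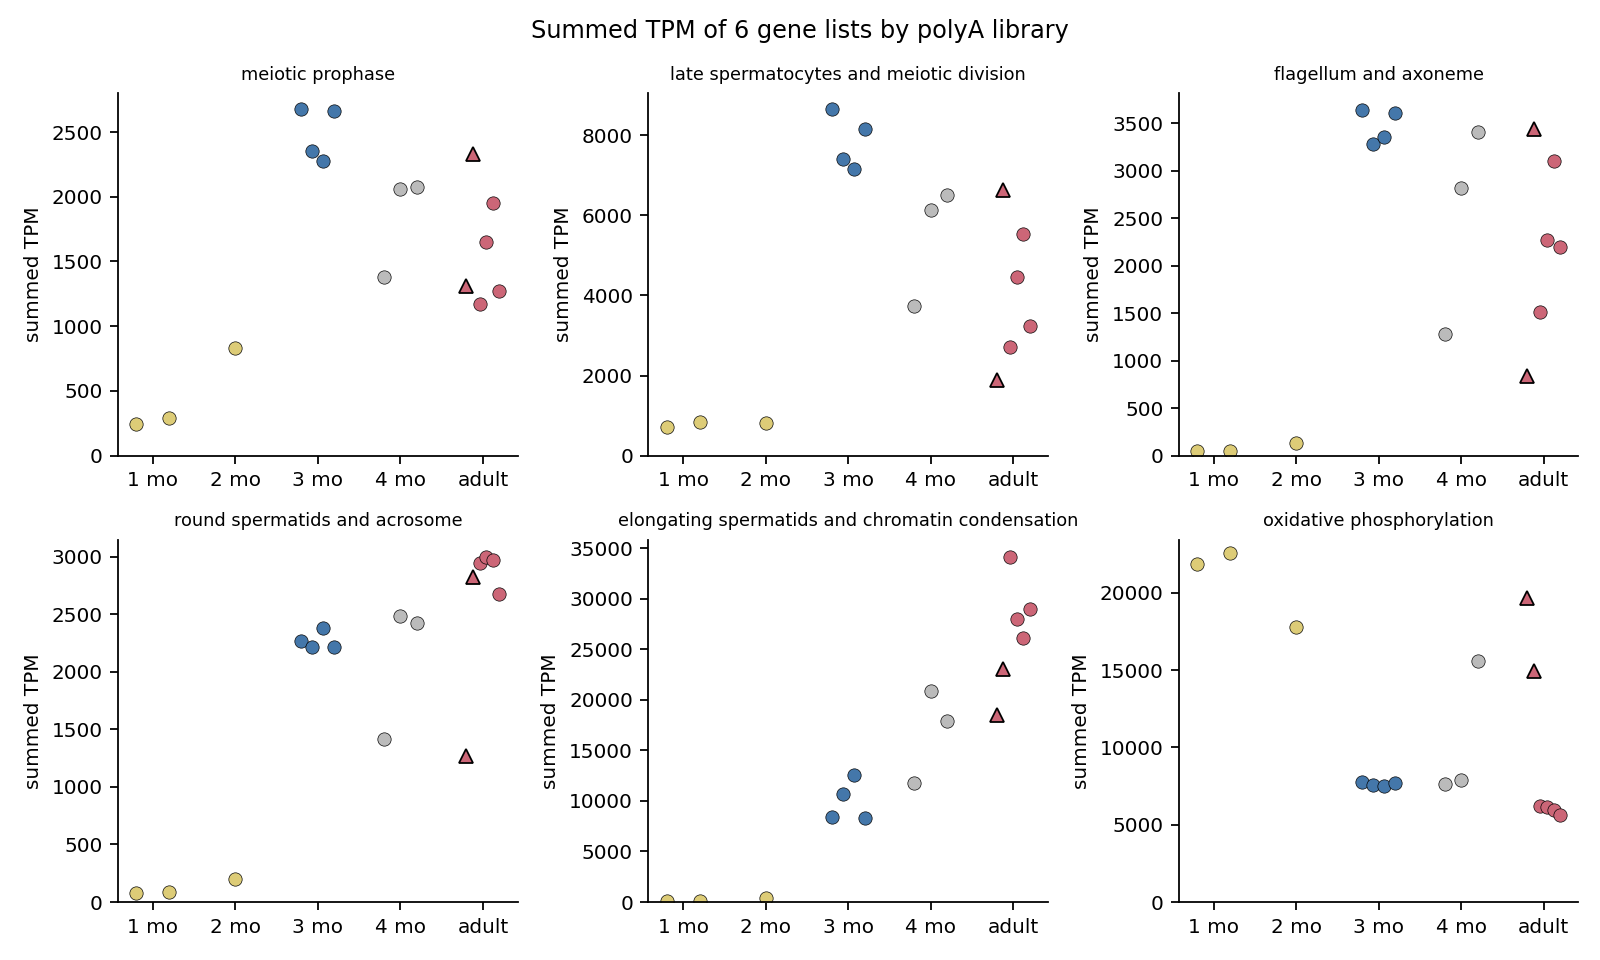
Summed TPM of the measured members of 6 gene lists in every polyA library of 1, 2, 3 and 4 months and adult, with triangles for adult replicates 1 and 3. Elongating spermatid sums run from 8336 to 12552 at 3 months and from 18509 to 34124 in adults, of which PRM1 alone holds 1231 to 3431 and 10517 to 19214. Late spermatocyte sums are highest at 3 months, and the triangles for oxidative phosphorylation, 19647 and 14953, lie far above the other adults.

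Libraries of 4 months, which were not in the main test, lay between the groups for some genes, given here as examples, but not for all named genes. PRM1 had 6005, 10199 and 6405 TPM in the 3 libraries, above all 3-month values and below all adult ones. TSSK3 had 117, 200.4 and 141 TPM and LYPLA1 238, 386 and 468, in the same position. KIF20A had 164, 272 and 116 TPM, below the 3-month range and partly within the adult one. Other named genes did not lie between. REG4 had 21.6 TPM in replicate 3 and ISLR2 37.1 in replicate 1, above all 3-month values, although both were lower in adults. RXFP2 and CLDN10, higher in adults, were listed at 0 in replicate 3, where SPATA19 was above every adult. Replicate 3 had 13880 genes at a TPM of at least 1, and replicate 2 had 23.0% of deposited TPM in mitochondrial genes. A steady change from 3 months to adult was not tested. At 1 month PRM1 was at 0.349 and 0.428 TPM, and at 2 months it was listed at 0 in the single polyA library. The summed elongating spermatid list was 98.7 and 115 at 1 month, 420.4 at 2 months and 11813, 20890 and 17946 at 4 months.

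Several of the largest increases were in genes outside the lists. LYPLA1, a thioesterase that removes palmitate from proteins, had 88.1, 142, 148 and 109 TPM at 3 months and 642 to 1064 in adults with a median of 831 (2.81, SE 0.232, adjusted p = 0.000552). RANGRF, a regulator of the Ran GTPase, had 119.5 to 276 TPM at 3 months and 882 to 2134 in adults (2.86, adjusted p = 0.00119). Neither gene overlapped between groups, which was a condition for naming genes by size. Adult replicates 1 and 3 were within or close to the range of the other adults. RANGRF overlaps SLC25A35 on the opposite strand, whose mean was 21.3 TPM at 3 months and 112 in adults. LYPLA1 overlaps MRPL15 on the opposite strand (means of 22.8 and 26.1 TPM) and a gene without a symbol on its own (51.6 and 76.6). A pair of enzymes of monoacylglycerol turnover rose as well: MOGAT3, an acyltransferase, from 6.41 to 22.1 TPM to 33.2 to 233 (2.96, adjusted p = 0.0189), and ABHD6, a lipase, from 16.6 to 52.4 TPM to 53.1 to 529.8 (2.81, adjusted p = 0.045). In both, adult replicates 1 and 3 were the lowest adults. TMEM239 rose by 2.57 and C2H6ORF163 by 2.56. AK1, an adenylate kinase, rose from 109 to 169 TPM at 3 months to 349.9 to 706 in adults (1.80, adjusted p = 0.00276), with SPATA19 one of 2 called among 16 tested genes of sperm energy metabolism (12.5%, beside 2.43% of all tested genes), where the median was 0.10. In that list 6 genes rose and 5 fell without adult replicates 1 and 3.

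Among the genes with large decreases, FCSK, which phosphorylates fucose, had 112, 116, 113 and 95.5 TPM at 3 months and 4.59 to 44.5 in adults with a median of 17.3 (-2.78, SE 0.557, adjusted p = 0.0212). MEPCE, which caps the 7SK RNA, had 506, 451, 445 and 498 TPM at 3 months and 51.7 to 239.6 in adults with a median of 118 (-1.99, adjusted p = 0.0136). In both genes the 3-month libraries were close together, and adult replicate 1 or 3 was the lowest. The adults were all lower, as the rule for naming these genes by size required. The other decreases named by size were in SH3GL1, an endophilin of membrane curvature (-2.38), TNNC1, a troponin of striated muscle (-2.25), ISLR2 (-2.23), REG4, a C-type lectin (-2.19), CADM4, a cell adhesion molecule (-2.11), KIF19, a kinesin of cilia (-2.07), DIPK1A (-2.06) and LRRC23, a radial spoke protein of the sperm tail (-1.96). REG4 was low in level, at 8.98 to 13.3 TPM at 3 months and 1.10 to 3.82 in adults. FCSK overlaps COG4, DIPK1A overlaps RPL5 and MEPCE a gene without a symbol, each on the opposite strand. Their means were 110, 128 and 33.5 TPM at 3 months and 55.8, 125 and 21.4 in adults.

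**Figure D5:**
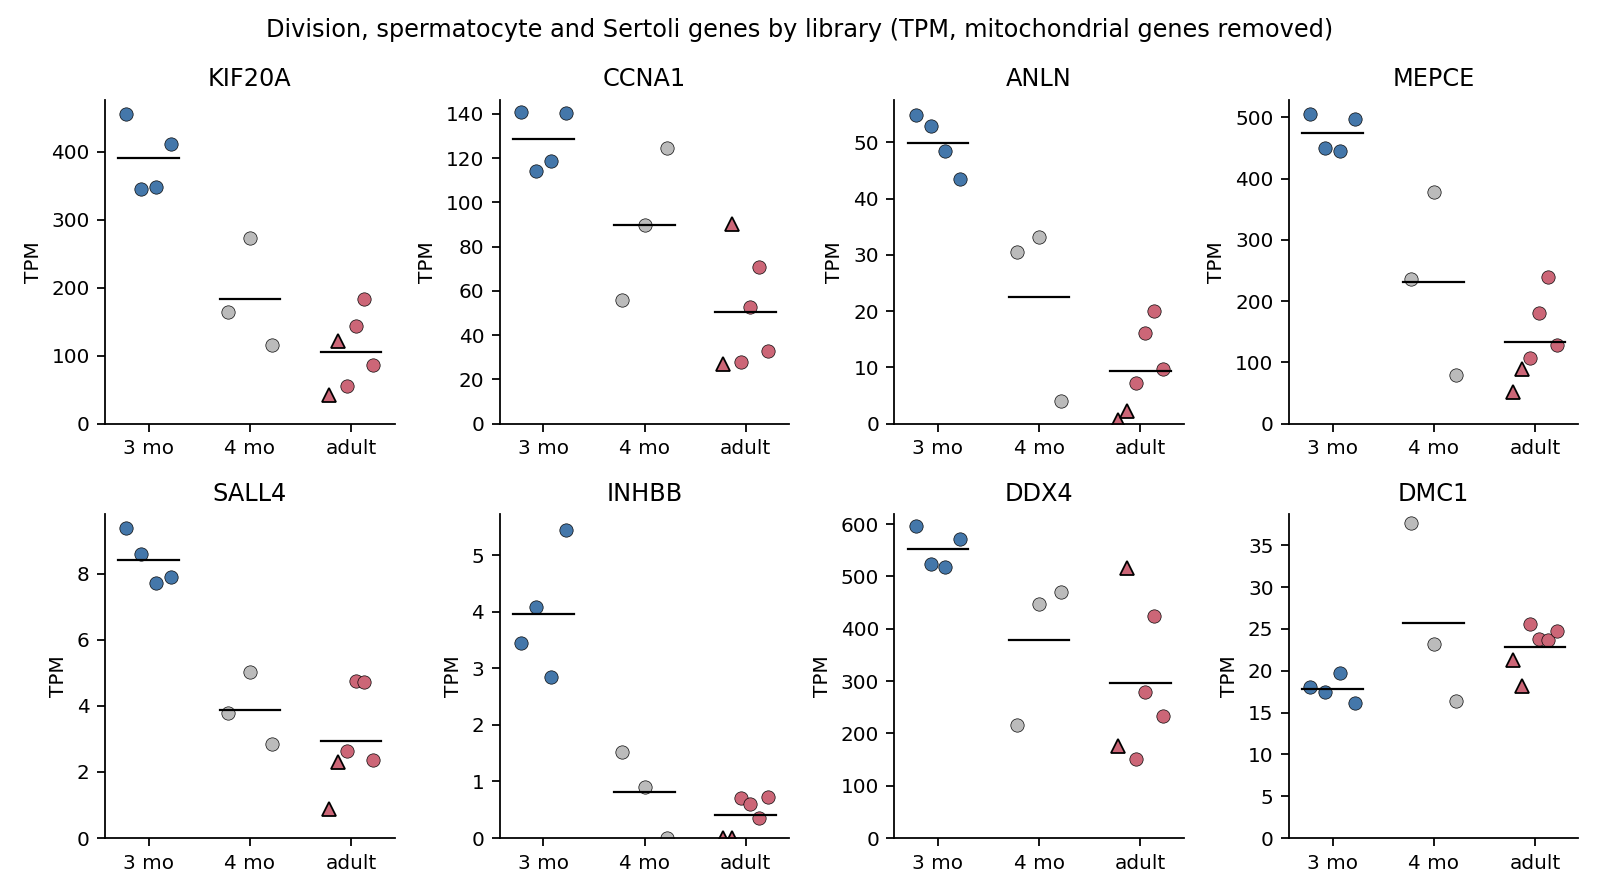
TPM of 8 genes in each library of 3 months (blue), 4 months (grey) and adult (red), with triangles for adult replicates 1 and 3 and a line at each mean. KIF20A, CCNA1, ANLN, MEPCE, SALL4 and INHBB are lower in all 6 adults than in all 4 libraries of 3 months, DDX4 does the same, by less than 1 TPM, without passing the test, and DMC1 overlaps. A lack of overlap was a condition for naming ANLN and MEPCE.

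The genes with the largest differences had no symbol in the tables. ENSMODG00000030245 (X chromosome, 73656233 to 73778508) had 30.8, 106, 335 and 31.0 TPM at 3 months and 2164 to 4439 in adults with a median of 3092 (log2 difference 5.31, SE 0.582, adjusted p = 0.00119). It contains ENSMODG00000038736 on the opposite strand, which had means of 24.7 and 922 TPM and did not pass (adjusted p = 0.0921). ENSMODG00000024956 (chromosome 6, 80832190 to 80832972) rose from 1.66 to 5.36 TPM to 51.4 to 132 (4.37, adjusted p = 0.000552). Both were listed at 0 at 1 and 2 months. ENSMODG00000044243 (chromosome 6, 267392766 to 267393498) fell from 231 to 1522 TPM to 0.717 to 109 (-4.49, adjusted p = 0.0418), although it had 3816, 1011 and 1.78 TPM in the 3 libraries of 4 months. ENSMODG00000025419 (chromosome 3, 63983666 to 63983947) fell from 82.4 to 110.1 TPM to 3.09 to 18.2 (-3.63, adjusted p = 0.00221). What these 4 genes encode is not given in the sources used here.

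X-linked genes, which are silenced as a chromosome in spermatocytes and partly return in spermatids, took a larger share of TPM in adults. The share was 1.58%, 2.00%, 2.06% and 1.79% at 3 months and 2.43% to 3.92% in adults, without overlap, with means of 1.86% ± 0.215 (SD, n = 4) and 3.15% ± 0.605 (SD, n = 6). The difference of 1.30 percentage points had a two-sided exact permutation p of 0.00952 over 210 arrangements (0.019 adjusted over the 2 shares tested). ENSMODG00000030245 alone made up 23.4% of that difference, and without the 2 most abundant X-linked genes the shares were 1.68% and 2.61%, with overlap (exact permutation p = 0.0238). Among 521 tested X-linked genes 8 were called higher (1.54%) and 1 lower (0.192%), both below the shares over all tested genes, 2.43% and 1.19%. X-linked genes were 2.93% of all detected genes at 3 months and 2.82% in adults (exact permutation p = 0.362). The mitochondrial share of TPM, 4.67% ± 0.976 (SD, n = 4) against 14.1% ± 12.8 (SD, n = 6), was higher in every adult library than in any 3-month library (exact permutation p = 0.114), and it carries the 39.9% of adult replicate 1. Without that library the difference was 4.24 points instead of 9.41 (exact permutation p = 0.00794).

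Of 14 tested genes of undifferentiated spermatogonia SALL4, a stem cell transcription factor, was the one called (7.14%, beside 1.19% of all tested genes called lower), falling from 9.38, 8.60, 7.74 and 7.92 TPM to 0.886 to 4.75 (-1.35, SE 0.32, adjusted p = 0.0421). GFRA1, the GDNF co-receptor of stem spermatogonia, had 40.4 to 55.7 TPM at 3 months, 93.2 to 116 in adult replicates 4 to 7, and 23.3 and 41.0 in adult replicates 1 and 3 (adjusted p = 0.511). ZBTB16 was below 3 TPM in all 10 libraries. KIT and STRA8, of differentiating spermatogonia, differed by 0.50 and 0.03, and none of 10 tested genes of that list was called. Without the 2 libraries, 6 genes of undifferentiated spermatogonia rose, GFRA1 by 1.10, and 2 fell.

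In RNA from all cells of a dissociated testis, fewer cells of a type and less RNA per cell cannot be told apart. Of 22 tested Sertoli cell genes INHBB, a subunit of inhibin B and activins, fell and KRT18, a keratin, rose (4.55% each way, beside 1.19% and 2.43% of all tested genes). INHBB had 3.45, 4.09, 2.84 and 5.46 TPM at 3 months, 0.349 to 0.734 in adult replicates 4 to 7, and was listed at 0 in adult replicates 1 and 3 (-1.84, SE 0.246, adjusted p = 0.00272). KRT18 had 118 to 171 TPM at 3 months and 213 to 440.5 in adults, with replicate 3 highest (1.00, adjusted p = 0.0403), a gene that is not restricted to Sertoli cells. Sertoli identity genes did not pass: SOX9 differed by 0.05, WT1 by -0.42, FSHR, the receptor for follicle-stimulating hormone, by 0.11 and INHA by -0.40. WT1 was 14.6 and 15.0 TPM in adult replicates 1 and 3 and 61.9 to 92.5 in the other adults, beside 44.4 to 67.2 at 3 months.

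None of 20 tested genes of Leydig cells and steroid synthesis was called. STAR, which brings cholesterol into mitochondria, had 186 to 234 TPM at 3 months and 150.0 to 602 in adults (0.36, adjusted p = 0.652), with the 2 highest adult values, 590.0 and 602, in replicates 1 and 7. It overlaps BAG4 and ASH2L on the opposite strand, with means of 33.1 and 482 TPM at 3 months and 126.4 and 199.7 in adults. CYP11A1, the first enzyme of steroid synthesis, had 65.2 to 92.4 TPM and 41.7 to 238 (-0.08, adjusted p = 0.928). Cholesterol synthesis genes had 0 calls in 16, as did the lists of peritubular, stromal, endothelial, immune and blood cells, with 17, 31, 13, 13 and 3 tested members. Without adult replicates 1 and 3, 6 of 13 endothelial genes rose (46.2%, beside 19.1% of all tested genes) and 0 fell, with a median of 1.09, and in peritubular cells 5 rose and 1 fell. In that setting 6 stromal genes rose and 3 fell, 2 immune genes rose and 0 fell, 1 blood gene fell and 0 rose, 2 Leydig cell genes rose and 4 fell, 5 Sertoli cell genes rose and 2 fell, and 1 cholesterol synthesis gene rose and 6 fell. The collagens COL3A1 and COL1A1 had differences of -2.36 and -1.60 (adjusted p = 0.115 and 0.106), and COL3A1 was lower in all adults, 1.84 to 69.1 TPM against 101 to 123. MYH11, of smooth muscle, differed by -0.24 with all adults and rose by 0.45 without replicates 1 and 3. The macrophage receptor CSF1R had 25.0 to 63.2 TPM at 3 months, 32.9 to 120.5 in adult replicates 4 to 7, and 4.61 and 3.90 in adult replicates 1 and 3 (adjusted p = 0.711). The sums of the somatic lists moved with those 2 libraries too: immune genes summed to 335 to 459 TPM at 3 months, 277 to 1051 in adult replicates 4 to 7, and 109 and 86.3 in adult replicates 1 and 3. Of the markers of these cell types found in the tables, INHBA and HSD17B1 among 26 of Sertoli cells were at 0 in all 10 libraries. The red cell genes SLC4A1 and EPB42 stayed under 1 TPM in all of them.

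Hormone genes held several of the called changes, most of them at low TPM, and the retinoic acid pathway held 1. RXFP2, the receptor for insulin-like peptide 3, had 0.121, 1.00, 0.719 and 1.66 TPM at 3 months and 3.13 to 38.3 in adults with a median of 14.2, without overlap (3.01, SE 0.514, adjusted p = 0.00954). GNRHR, the receptor for gonadotropin-releasing hormone, had 2.12 to 3.87 TPM at 3 months and 0 to 1.83 in adults (-1.52, adjusted p = 0.0148), and FST, the activin-binding follistatin, 7.39 to 9.13 and 2.11 to 4.71 (-1.08, adjusted p = 0.0379). With INHBB, 3 of 24 tested genes of hormones and their receptors fell (12.5%, beside 1.19% of all tested genes) and RXFP2 rose (4.17%, beside 2.43%). Without adult replicates 1 and 3, 6 rose and 3 fell, and the list's median went from -0.20 to 0.24. Leaving out 3-month replicate 1 gave 1 lower and 0 higher, 3-month replicate 2 gave 1 of each, and the other single libraries gave 2 or 3 lower and 1 higher. LRAT, which esterifies retinol for storage, rose from 30.8 to 55.0 TPM to 68.1 to 91.2 (1.04, adjusted p = 0.023), 1 of 15 tested genes of the retinoic acid pathway (6.67%, beside 2.43% of all tested genes). Of the 15, 4 rose and 2 fell without adult replicates 1 and 3. CLDN10, a tight junction claudin, rose from 1.03 to 1.90 TPM to 7.92 to 21.6 (2.57, adjusted p = 0.0019), with adult replicates 1 and 3 highest.

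The lists of stress response, respiration and ribosomes had 1 called gene in all, and the first 2 separated adult replicates 1 and 3 from the other adults. None of 24 immediate early and heat shock genes was called and their median was 0.30. Their sum was 3223 to 3408 TPM at 3 months, 3719 to 6796 in adult replicates 4 to 7, and 2129 and 1763 in adult replicates 1 and 3, and 21 of 24 rose without the latter. Oxidative phosphorylation genes of the nucleus summed to 7512 to 7763 TPM at 3 months, 5660.0 to 6213 in adult replicates 4 to 7, and 19647 and 14953 in adult replicates 1 and 3. NDUFB4, of respiratory complex I, was the one called among 40 (2.5%, beside 2.43% of all tested genes; 1.61, adjusted p = 0.0276), a call lost without any 1 library of 3 months or adult replicate 4 or 7, while without those 2 libraries 21 fell, 2 rose and the median went from 0.20 to -0.31. None of 38 ribosomal protein genes, 14 of the hypoxia and glycolysis response or 14 of a juvenile growth programme was called. Leaving out adult replicates 1 and 3, 1 ribosomal protein gene rose and 3 fell, 4 hypoxia genes rose and 3 fell, and 3 juvenile growth genes rose and 0 fell. In all, 19 of the 497 distinct list members tested were called (3.82%), close to the share of all tested genes. The part of these library differences in the comparison between ages was not tested.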

How the data were processed

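Per the file headers, the deposited bulk tables list genes with mean coverage (signal), FPKM and TPM as the authors computed them. The submitters' processing notes name HISAT2 2.2.1, SAMtools 1.12 and StringTie 2.1.4. Those notes name GRCm39, a mouse build, for the opossum bulk libraries too. The opossum build, annotation and strand setting behind the bulk tables are not given in the sources used here, and coordinates are those of the tables. Rows sharing a gene ID were summed, the 37 mitochondrial genes were removed, and TPM was rescaled to 1000000. Read numbers are unknown, so no counting interval is given; aligned gigabases are the median over genes of deposited coverage divided by deposited FPKM.

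Genes with TPM of at least 1 in 2 or more of the 10 libraries were tested on log2(TPM + 1) with limma 3.58.1 (R 4.3.3, variance trend, Benjamini-Hochberg adjustment). The fit was tried on simulated data in which genes and libraries varied independently. That simulation held no shift shared by libraries, such as that of adult replicates 1 and 3, and so says nothing about its effect on the calls. Shares were compared by exact permutation. Named genes were the 12 largest called differences with a symbol in each direction, at a mean of at least 5 TPM in 1 group and without overlap, up to 3 called members of each list, 2 genes without a symbol in each direction, and 36 genes always named, of which 22 were tested and 1 is not reported here. Other list members were named as examples after their values were seen. The libraries, gene lists and rules were chosen with earlier results of these data known. Only 13039 of 34985 gene IDs carried a symbol, so that absent markers (TNP2, SYCP3, DAZL, INSL3, CYP17A1, LHCGR, AMH, ACTA2 and PECAM1 among them) were not analysed here. Alternatives were other pseudocounts, filters, scalings, FPKM, library weights, a fit of all 16 polyA libraries, a replicate block and leaving out libraries.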

Additional observations from a re-analysis of the deposited data

Results flagged for a closer look

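Each group's highest or lowest library was compared with the rest of its group for 60 named genes, 2 shares and 26 list sums, and 10 of 176 groups (5.68%) had a library far from the others. Chance gives about 1 in 20, and the flagged share is close to that. The rule sets the extreme library against the next one, so 2 libraries that lie far out together escape it. Adult replicates 1 and 3 were both below adult replicates 4 to 7 in 43.2% of all tested genes and both above in 10.9%. The flagged share therefore does not measure how far those 2 libraries stood apart. Some list sums include named genes, so the groups are not independent. Adult replicate 1 accounted for 7 of the 10. It had 39.9% of TPM in mitochondrial genes (other adults 7.36% to 11.8%), 28872 summed TPM of ribosomal proteins (13179 to 18203) and 1265 summed TPM of round spermatid and acrosome genes (2680.2 to 3001). It also had 238 TPM of CYP11A1 (41.7 to 106), 204 TPM of NDUFB4 (51.0 to 76.7), 3.82 TPM of REG4 (1.10 to 1.54) and 1.83 TPM of GNRHR (0 to 0.37). Adult replicate 3 had 440.5 TPM of KRT18 (213 to 269.9). At 3 months, replicate 1 had 12.5 TPM of KIF19 (9.75 to 9.88) and replicate 2 had 89.7 summed TPM of the juvenile growth programme (69.9 to 72.5).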

How the results depend on the processing

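None of the 39 named genes called with all libraries changed sign under the alternatives tried. None of them overlapped between the groups, so most alternatives, leaving out libraries among them, could not reverse a sign. Only keeping mitochondrial genes, median-ratio scaling and quantile normalization could have done so. Of the 39, 11 stayed called under all 24 and INHBB under the 23 that tested it, but the number of calls depended on the libraries and on scaling. The 659 called genes (443 higher, 216 lower) became 298 (198, 100) with mitochondrial genes kept, 1010 (715 higher) with median-ratio scaling, 1346 (824, 522) with quantile normalization and 7942 (4198, 3744) with library weights. The median over all genes moved from -0.11 to -0.23 with mitochondrial genes kept and to about 0 with median-ratio scaling. Genes lower numbered 136 and 378 with pseudocounts of 0.1 and 5. Leaving out 1 library gave 167 to 1952 calls, 147 to 1032 higher and 20 to 1125 lower. The totals were 167, 248, 417 and 210 without 3-month replicates 1 to 4, and 1683, 1952, 311, 384 and 388 without adult replicates 1, 3, 4, 5 and 7. Leaving out both adult replicates 1 and 3 gave 6476 (3416, 3060), an alternative added once the libraries had been examined. With a replicate block over the shared numbers there were 1054 calls, 220 higher and 834 lower. The deviations of same-numbered libraries correlated at 0.033, -0.18 and -0.27, so the numbers do not show a pairing. Of the 39 named genes called, 16 were still called without 3-month replicate 1 and 39 without adult replicate 1 or 3. The median of elongating spermatid genes stayed positive (0.04 to 1.13), and those of late spermatocyte (-1.29 to -0.70) and flagellum genes (-1.40 to -0.78) negative, under every setting. FPKM, rescaled, equals TPM by construction, and a cut at an absolute difference of at least 1 reuses the main fit. MYH11, not called with all libraries (-0.24), was called higher with library weights (0.42) and without both adult replicates 1 and 3 (0.45). The difference in the X-linked share reversed as a share of detected genes (-0.11 points). The mitochondrial difference passed an exact permutation test without any 1 adult library other than replicate 3, with differences of 4.24 to 10.7 points over all libraries left out, and without both replicates 1 and 3 (3.52 points). Without any 1 library of 3 months its exact permutation p for the mitochondrial share of TPM was 0.274 to 0.31, beside 0.114 with all. Every adult still lay above every 3-month library in those settings. Arrangements that put adult replicate 1 in the smaller group give large differences and raise that p, so its rise does not show a weaker difference. Read depth per gene is unknown and limits low TPM.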

Other observations

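The ratio of PRM1 to TNP1, both of condensing spermatids, set adult replicates 1 and 3 apart from all other libraries in which both were found. It was 4.64 to 6.43 in the 3-month libraries, 10.1 to 11.5 in adult replicates 4 to 7, and 41.0 and 33.5 in adult replicates 1 and 3. Of the 3 libraries of 4 months, which were not in the main comparison, replicate 3 had a ratio of 23.2 and replicates 1 and 2 had 9.82 and 7.75. That library also had the fewest genes at a TPM of at least 1 (13880, against 16719 and 16063 in the other libraries of its age) and 15577 summed TPM of nuclear oxidative phosphorylation genes (7648 and 7928). Of 26 Sertoli cell genes found, 20 were lower in it than in both other libraries of 4 months and 1 was higher. The same count over all genes was not made, so it cannot show whether Sertoli cell genes stood out in this library. WT1 and FSHR had 0.299 and 0.127 TPM, against 60.3 to 68.6 and 12.9 to 16.8, while KRT18 had 479 against 106 and 203. Its mitochondrial share of the deposited TPM was 3.15%, while that of replicate 2 of 4 months was 23.0%.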
